A study of Mus musculus with 11 samples.

Results

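Heparan sulfate is a sulfated sugar chain that cells attach to a small set of core proteins on their surface and in the matrix around them. Its genes were followed here in newborn thalamic neurons as a family of 40 genes, 27 enzymes and 13 core proteins (6 glypicans, 4 syndecans and 3 secreted proteoglycans). The family was chosen by gene name, with earlier results of these data known, and Hs6st2 and Gpc4 were known to be high in the dorsolateral geniculate nucleus when it was put together. All 40 genes were matched by Ensembl identifier among the 54752 gene identifiers of the count tables. The question behind the series was which genes tell neurons of different sensory relays in the thalamus apart. It comprised 11 RNA-seq libraries, 4 of the dorsolateral geniculate nucleus (dLG, the visual relay), 4 of the ventral posteromedial nucleus (VPM, the relay for touch of the face) and 3 of the ventral medial geniculate nucleus (MGv, the auditory relay). All came from Gbx2CreER-IRES-EGFP/+::R26lsl-tdTomato/+ mice of the outbred strain ICR/CD-1 at postnatal day 0, so that the groups shared the genotype, strain and age and differed in the nucleus dissected. In these mice a tamoxifen-inducible Cre recombinase expressed from the Gbx2 gene turns on the red fluorescent protein tdTomato, and red cells were sorted. The reporter therefore marks cells that expressed Gbx2 when tamoxifen was given, not all neurons of a nucleus, and each library pooled 4 brains.

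Total counts ranged from 10.2 to 23.6 M per library (15.9 to 22.7 M in dLG, 18.9 to 23.6 M in VPM and 10.2 to 13.2 M in MGv). Levels are CPM (counts scaled to a common library size, here with edgeR's TMM factors), and a count of 3 corresponds to 0.129 to 0.291 CPM. Neuronal genes were high in every library (10452 to 12099 CPM in dLG, 11842 to 14298 CPM in VPM and 11756 to 12334 CPM in MGv for the 9 genes of the list summed), and the 6 thalamic markers summed to 2433 to 2945 CPM in dLG, 1740.2 to 2325 CPM in VPM and 2489 to 2713 CPM in MGv. Between nuclei, 4 of the 9 neuronal genes and all 6 thalamic markers were called, where 28.3% of all genes tested were called in at least 1 comparison. The thalamic sum in VPM lay below those of both other nuclei without overlap. The part of this difference in the results on VPM was not tested. Among markers of other cell types, Cdh5 of endothelial cells was at 0 in every library and Sox10, Gfap, Col1a2, Slc32a1 and Tac2 had at most 3 counts in any. Other genes of the same lists were detected. Over all libraries the lists summed to 1.07 to 7.53 CPM for endothelial cells (3 of 3 tested genes called between nuclei). For pericytes and fibroblasts the sum was 2.89 to 7.22 CPM (1 of 3 tested genes called). The sums were 5.22 to 20.2 CPM for microglia (1 of 5) and 0.381 to 5.19 CPM for GABAergic neurons (0 of 2). For the habenula the sum was 22.8 to 51.4 CPM (3 of 5). The astrocyte and radial glia list summed to 56.9 to 139 CPM in dLG, 86.7 to 151 in VPM and 76.1 to 191 in MGv. The oligodendrocyte list summed to 13.1 to 30.5 CPM in dLG, 33.7 to 43.9 in VPM and 74.8 to 86.4 in MGv. Of their tested genes, 3 of 6 and 2 of 4 were called between nuclei. The part of these cells in the results below was not tested. A list of 9 immediate-early and heat shock genes that respond to dissociation (5 called, with Fos the most abundant) summed to 387 to 559.6 CPM in dLG, 214 to 291 CPM in VPM and 496 to 618 CPM in MGv. VPM lay below both other nuclei without overlap. The part of this list in the results on VPM was not tested either. A set of 3 libraries stood apart, dLG replicate 2, VPM replicate 3 and MGv replicate 1, in which Hspa8, a heat shock gene used by all cells, was at 3.05 to 5.55 CPM against 159 to 580.1 CPM in the other 8. Y-linked genes were near 0 in dLG replicates 1 and 3 and VPM replicate 1 and present in the other 8 libraries.

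Synthesis starts on a serine of the core protein, where Xylt1 or Xylt2 places xylose and B3gat3 completes a short linker. Extl3 and Extl2 act at the start of the chain, the Ext1 and Ext2 proteins extend it, the Ndst enzymes exchange acetyl for sulfate groups, Glce converts glucuronic to iduronic acid, and Hs2st1 and the Hs6st and Hs3st families add sulfate at particular carbons. Sulf1 and Sulf2 remove 6-O-sulfate outside the cell and Hpse cuts the chain. The sulfation pattern sets which growth factors and guidance proteins bind, and in the developing brain heparan sulfate takes part in axon guidance, patterning and synapse formation.

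Hs6st2, Gpc4 and Gpc3 are neighbours on the X chromosome, and the sequences before their starts are shown with those of Sdc1 and Sulf2, the core protein and enzyme with large differences toward VPM and MGv. Each line gives the 250 bases before the RefSeq transcription start, 5′ to 3′ on the strand of the gene, in build GRCm38.p6, with motif matches in capitals (GC box GGGCGG or its reverse complement CCGCCC, and TATA box TATAAA). The stretches lie at chrX:51681603-51681852 (minus strand) for Hs6st2, chrX:52164924-52165173 (minus) for Gpc4, chrX:52613975-52614224 (minus) for Gpc3, chr12:8771146-8771395 (plus) for Sdc1 and chr2:166155684-166155933 (minus) for Sulf2.
Hs6st2: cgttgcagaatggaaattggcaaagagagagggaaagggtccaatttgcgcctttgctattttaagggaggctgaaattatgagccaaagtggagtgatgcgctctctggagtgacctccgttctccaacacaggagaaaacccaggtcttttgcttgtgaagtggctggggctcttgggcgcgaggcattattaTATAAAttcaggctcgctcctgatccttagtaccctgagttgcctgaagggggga
Gpc4: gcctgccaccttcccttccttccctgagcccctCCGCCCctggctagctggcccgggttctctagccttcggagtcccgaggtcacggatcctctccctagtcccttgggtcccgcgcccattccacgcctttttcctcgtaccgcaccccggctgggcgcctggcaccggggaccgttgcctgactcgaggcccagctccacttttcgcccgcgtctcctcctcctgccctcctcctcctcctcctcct
Gpc3: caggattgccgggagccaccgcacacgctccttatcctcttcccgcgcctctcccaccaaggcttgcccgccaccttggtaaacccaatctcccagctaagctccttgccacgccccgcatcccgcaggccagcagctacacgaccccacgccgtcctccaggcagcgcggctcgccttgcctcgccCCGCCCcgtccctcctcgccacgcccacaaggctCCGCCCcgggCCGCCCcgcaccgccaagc
Sdc1: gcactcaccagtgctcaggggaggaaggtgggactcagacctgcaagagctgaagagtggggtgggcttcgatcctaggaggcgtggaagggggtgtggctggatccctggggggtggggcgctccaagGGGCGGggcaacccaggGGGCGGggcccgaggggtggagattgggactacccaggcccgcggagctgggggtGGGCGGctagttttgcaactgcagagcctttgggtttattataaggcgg
Sulf2: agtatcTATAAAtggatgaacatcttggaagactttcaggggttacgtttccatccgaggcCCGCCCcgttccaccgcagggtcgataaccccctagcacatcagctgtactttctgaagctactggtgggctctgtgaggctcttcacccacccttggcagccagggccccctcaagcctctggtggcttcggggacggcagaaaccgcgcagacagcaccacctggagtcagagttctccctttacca
The RefSeq start of Hs6st2 lies 254 bases inside the outermost start that GENCODE M21 gives, and that of Gpc4 329 bases inside it, so both stretches lie in the gene as GENCODE draws it. RefSeq windows of 300 bases (250 before and 50 after the start) were given for 30 of the 40 genes. The GC box was in 23 of the 30, against 35.7% of 32851 windows of all genes, and the median number of CG pairs was 23 against 7. Members had 1 window each, the outermost, while the background held every window given, not limited to 1 per gene or to coding genes. The shares here and below are therefore not like for like and are description only. Hs6st2 was 1 of 7 without a GC box and held a TATA box 55 bases before the start, a motif in 3 of the 30 windows (Hs6st2, Gpc5 and Sulf2) and in 13.6% of all. The motifs ATCAAAG (TCF/LEF) and TAATTA (homeodomain) were in 0 of the 30, against 3.73% and 5.29% of all windows. Both strands were searched, no motif was masked by another, and a match describes letters only.

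Of the 40 genes, 34 passed the filter on low counts. The other 6 (Hs3st3a1, Hs3st6, Hpse, Gpc2, Sdc4 and Hspg2) stayed at or below 1.12 CPM in every library. Among them were the secreted proteoglycan perlecan (Hspg2) and heparanase (Hpse), the latter with counts in a single library. Counts of Gpc2 and Hs3st3a1 are also uncertain because 55.6% of the exonic length of Gpc2 is shared with Gm43720 on the same strand and 32.9% of that of Hs3st3a1 is covered on the other strand, and use of strand in counting was not stated.

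**Figure D1:**
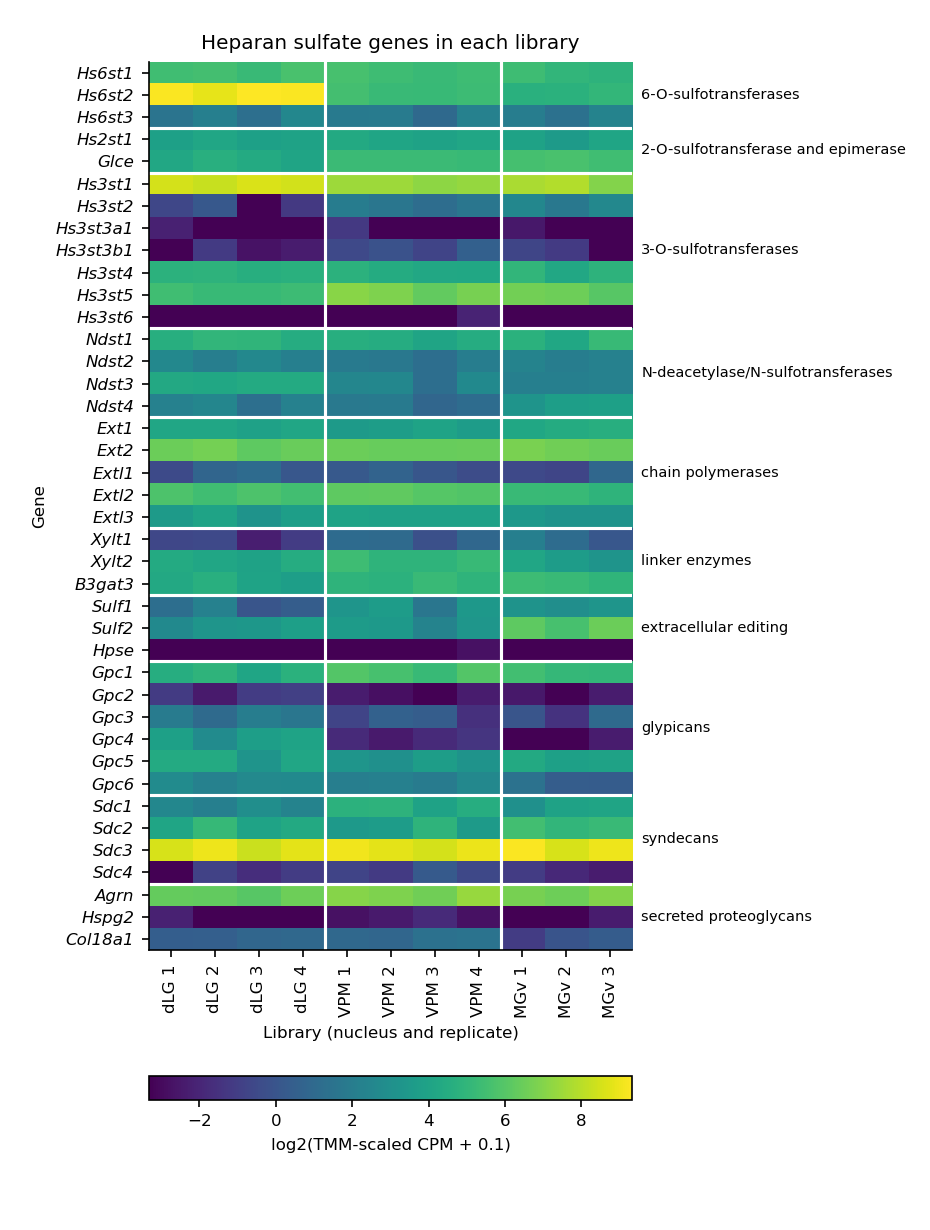
Level of each of the 40 genes (rows, grouped by role) in each of the 11 libraries (columns), as log2 of TMM-scaled CPM plus 0.1 (colour). Hs6st2 in dLG, Hs3st1 and Sdc3 form the brightest cells, and the 6 genes that did not pass the filter are dark throughout.

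The nuclei were compared in a single model (edgeR's quasi-likelihood test), and a gene was called at a Benjamini-Hochberg adjusted p under 0.1 over the 15907 genes tested. Between dLG and VPM, 17 members differed, with 6 toward dLG and 11 toward VPM, where 10.7% of all genes tested were called (4.97% toward dLG and 5.74% toward VPM). In the contrast of dLG with MGv, 16 differed, 6 toward dLG and 10 toward MGv, against 16.1% of all genes (8.61% and 7.49%). VPM and MGv differed in 12 members, 7 toward VPM and 5 toward MGv, against 19.0% of all genes (10.4% and 8.56%). In all, 24 members differed in at least 1 comparison, against 28.3% of all genes. The contrasts share libraries, Hs6st2 and Gpc4 are counted here although their dLG contrasts chose them, and the filter favours genes that are high somewhere, so the shares are given as description only. The median log2 difference over the 34 members was 0.049 for dLG against VPM, -0.0028 for dLG against MGv and -0.038 for VPM against MGv, and over all genes tested it was 0.0048, 0.015 and 0.022. Without the 3 libraries low in Hspa8 the members called numbered 19, 19 and 13 in the same order. Calls over all genes rose as well, from 1704, 2562 and 3016 to 2618, 3209 and 3078.

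By nucleus, 9 members were higher in 1 nucleus than in each of the other 2 (8.12% of all genes). In dLG they were Hs6st2, Hs3st1, Ndst3 and Gpc4 (2.04% of all genes), in VPM Extl2, Xylt2 and Sdc1 (2.41%), and in MGv Ndst4 and Sulf2 (3.66%). Hs6st2 and Gpc4 are among the 9 and the dLG genes although their dLG level chose them, so these shares are description only. A further pattern ran the other way, with 8 members lower in dLG than in both other nuclei (Glce, Hs3st2, Hs3st5, Xylt1, B3gat3, Sulf1, Gpc1 and Sdc1, against 2.18% of all genes). With only the libraries that held Y-linked reads, Glce, Hs3st2, Xylt1, B3gat3, Sulf1 and Gpc1 lost at least 1 of these calls. Xylt1 and Gpc1 also lost calls when single libraries were left out. Gpc5 was lower in VPM than in both others (1.97%), and Hs6st2, Extl2 and Gpc6 were lower in MGv than in both others (5.22%). In libraries of pooled sorted cells, fewer cells that express a gene and less RNA per cell cannot be told apart.

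**Figure D2:**
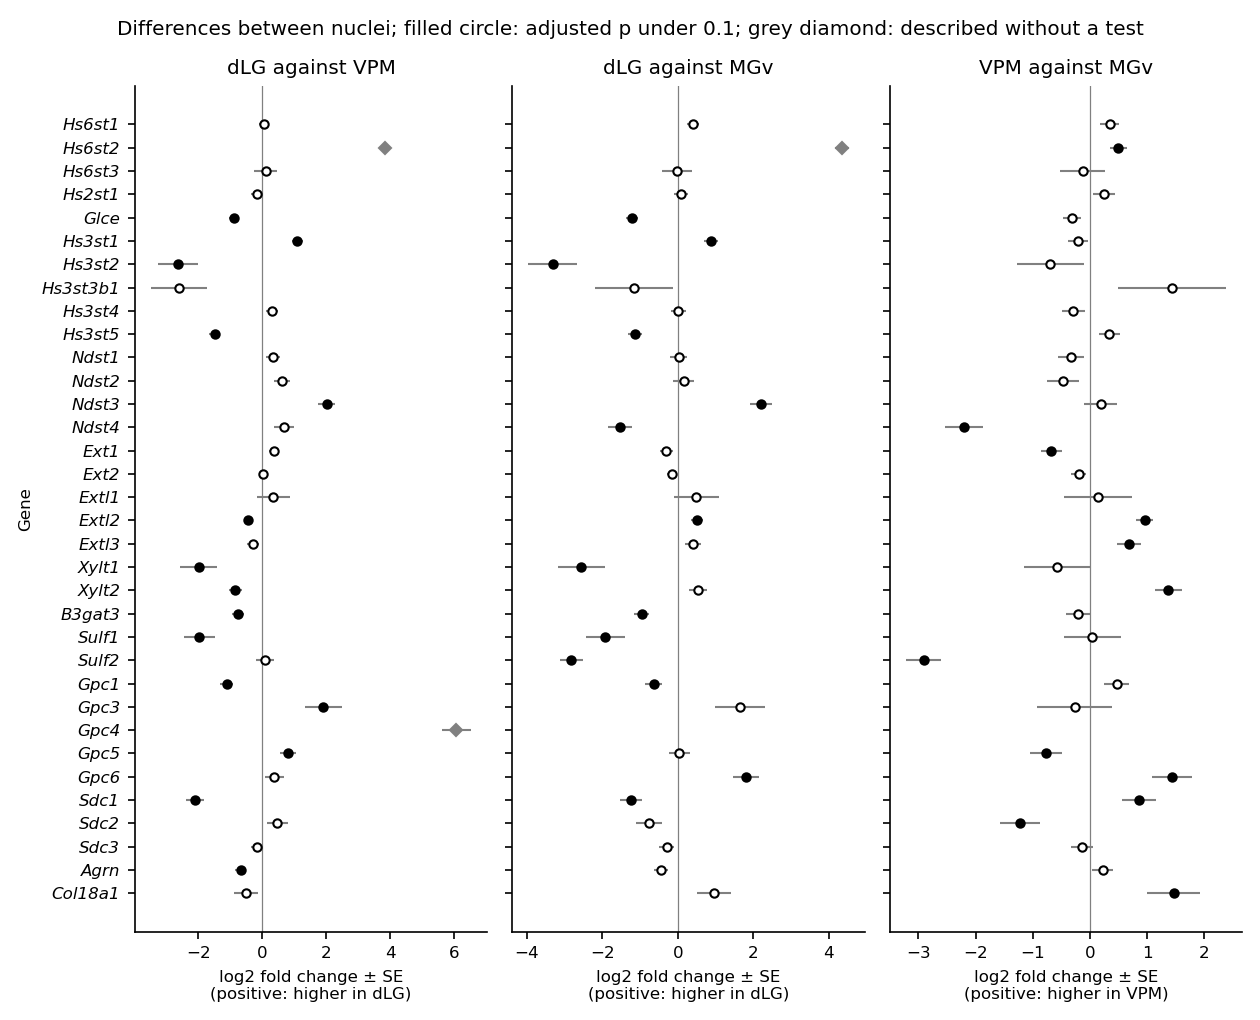
Log2 fold change of each of the 34 tested members between nuclei (points) with its standard error (bars), positive where the first-named nucleus is higher. Filled circles passed an adjusted p of 0.1, open circles did not, and grey diamonds mark the dLG contrasts of Hs6st2 and Gpc4, which are described without a test. Gpc4 is left out against MGv, where it had 1 count in all.

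Among the 6-O-sulfotransferases, which add the sulfate that many growth factors need to bind, Hs6st2 (X:51387212-51681856, minus strand, GRCm38) set the dLG apart. Its level in dLG replicates 1 to 4 was 614, 472, 646 and 616 CPM. In VPM it was 47.4, 38.1, 37.2 and 40.6 CPM, and in MGv 26.3, 26.7 and 33.7 CPM. Every dLG library lay far above every other library, and the lowest of the 4 was replicate 2, 1 of the 3 libraries low in Hspa8. The mean was 14.4-fold that of VPM (log2 3.85 ± 0.15, SE) and 20.3-fold that of MGv (log2 4.35 ± 0.18), values for which the gene was chosen. The contrast that did not choose it was smaller, since VPM exceeded MGv by 1.41-fold (log2 0.50 ± 0.15, adjusted p = 0.0464). That last call was lost without MGv replicate 1 or MGv replicate 2 (adjusted p = 0.136 to 0.147). It was also lost with total counts in place of TMM (adjusted p = 0.101) and with only the libraries holding Y-linked reads (0.177).

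The other members of this class did not follow Hs6st2. Hs6st1 was at 45.5 ± 5.34 CPM in dLG, 43.7 ± 4.77 CPM in VPM and 34.3 ± 6.61 CPM in MGv (mean ± SD, n = 4, 4 and 3), and Hs6st3 ranged from 1.92 to 5.67 CPM over all libraries, with no call in any comparison for either. Per kilobase of exon, Hs6st2 made up 87.7 ± 2.81% of the summed 6-O-sulfotransferase level in dLG, 34.6 ± 1.96% in VPM and 30.7 ± 4.68% in MGv, while Hs6st1 made up 9.72 ± 1.82%, 52.1 ± 2.02% and 51.1 ± 7.69%. The sum for the class was 85.6 ± 9.48 CPM per kb in dLG, 15.2 ± 1.82 in VPM and 12.1 ± 1.35 in MGv. In dLG, Hs6st2 gave 75.2 CPM per kb of it. The dLG sum and shares thus restate the level for which Hs6st2 was chosen and are not a separate result on the class.

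**Figure D3:**
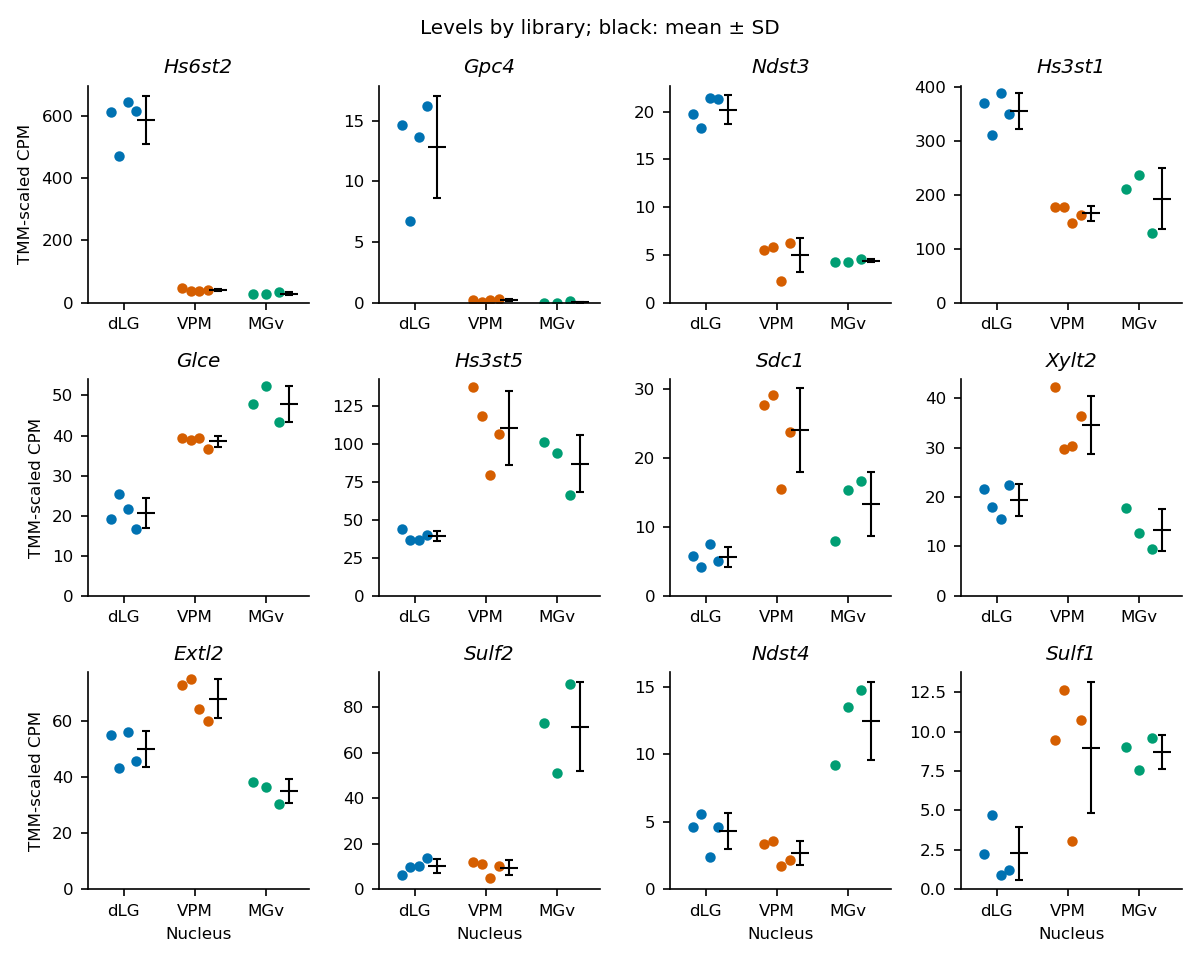
TMM-scaled CPM of 12 members in each library (points) by nucleus, with mean ± SD in black (n = 4, 4 and 3) and each axis starting at 0. Hs6st2, Gpc4, Ndst3 and Hs3st1 have all dLG libraries above the rest, Sulf2 and Ndst4 all MGv libraries, and Glce and Hs3st5 have all dLG libraries below the rest.

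The 3-O-sulfotransferases add the rarest modification of the chain, and 3 of the 5 tested members differed (28.3% of all genes did), 1 toward dLG and 2 away from it. Hs3st1 was the most abundant of them, at 369.6, 312, 389 and 351 CPM in dLG, 177, 178, 148 and 162 CPM in VPM and 212, 237 and 129 CPM in MGv. All dLG libraries lay above all others, 2.14-fold above VPM (log2 1.1 ± 0.17, adjusted p = 0.00104) and 1.85-fold above MGv (log2 0.88 ± 0.18, adjusted p = 0.00537). MGv replicate 3 was the lowest library of all, and the difference between VPM and MGv, 0.21 ± 0.18 on the log2 scale, was called only without MGv replicate 3 (adjusted p = 0.0858).

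Hs3st5 ran opposite to Hs3st1. Its level was 43.7, 36.6, 36.9 and 40.4 CPM in dLG, 138, 118, 79.6 and 106 CPM in VPM and 101, 94.1 and 66.1 CPM in MGv. Here the dLG was lowest without overlap, 2.81-fold below VPM (log2 1.49 ± 0.18, adjusted p = 0.000147) and 2.21-fold below MGv (log2 1.15 ± 0.19, adjusted p = 0.00113). VPM against MGv did not pass (log2 0.34 ± 0.19, adjusted p = 0.266) but passed without VPM replicate 3 (adjusted p = 0.0754), 1 of the libraries low in Hspa8.

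Hs3st2 followed the same order at a lower level, with 0.547, 1.03, 0 and 0.334 CPM in dLG, 3.94, 3.03, 2.23 and 2.99 CPM in VPM and 5.7, 3.24 and 5.83 CPM in MGv. The groups of VPM and MGv overlapped each other and neither overlapped dLG, which was 6.19-fold below VPM (log2 2.63 ± 0.61, adjusted p = 0.0172) and 9.98-fold below MGv (log2 3.32 ± 0.65, adjusted p = 0.00369). These rest on few reads, 0 to 24 counts per dLG library, and 9.05% of its exonic length has an annotated gene on the other strand. Hs3st4, at 18.7 to 32.1 CPM, and Hs3st3b1, at 0 to 1.38 CPM, had no call. The share of Hs3st1 in the summed level per kilobase was 89.9 ± 1.19% in dLG, 69.2 ± 2.9% in VPM and 73.4 ± 5.03% in MGv, and that of Hs3st5 5.15 ± 0.461%, 23.4 ± 2.51% and 17.4 ± 1.13%.

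The N-deacetylase/N-sulfotransferases make the first modification of the chain, on which later sulfation builds, and the pair of less common forms marked different nuclei. Ndst3 was at 19.7, 18.3, 21.4 and 21.4 CPM in dLG, 5.56, 5.79, 2.29 and 6.27 CPM in VPM and 4.28, 4.3 and 4.56 CPM in MGv. Its dLG libraries were all above the rest, 4.03-fold above VPM (log2 2.01 ± 0.26, adjusted p = 0.000279) and 4.61-fold above MGv (log2 2.2 ± 0.30, adjusted p = 0.000255). Between VPM and MGv the log2 difference was 0.19 ± 0.29 (adjusted p = 0.714).

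Ndst4 marked MGv instead, at 9.23, 13.5 and 14.8 CPM there, 4.62, 5.54, 2.39 and 4.62 CPM in dLG and 3.33, 3.55, 1.73 and 2.14 CPM in VPM. Every MGv library was above every other, 2.9-fold above dLG (log2 1.54 ± 0.33, adjusted p = 0.00687) and 4.61-fold above VPM (log2 2.21 ± 0.34, adjusted p = 0.000676). The widely used forms Ndst1 (27.6 ± 4.69 CPM in dLG, 21.7 ± 3.32 CPM in VPM and 27.3 ± 9.34 CPM in MGv) and Ndst2 (2.29 to 5.90 CPM) had no call in any comparison. Per kilobase, Ndst3 made up 30 ± 3.52% of the class in dLG against 12 ± 2.83% in VPM and 7.85 ± 1.43% in MGv, and Ndst4 18.8 ± 5.33% in MGv against 5.41 ± 1.78% in dLG and 5.58 ± 1.26% in VPM.

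Glce, the epimerase that gives the chain its flexible iduronic acid, was at 19.3, 25.4, 21.6 and 16.6 CPM in dLG, 39.4, 39, 39.3 and 36.5 CPM in VPM and 47.9, 52.3 and 43.4 CPM in MGv. The groups did not overlap, and dLG was 1.86-fold below VPM (log2 0.89 ± 0.15, adjusted p = 0.00193) and 2.31-fold below MGv (log2 1.21 ± 0.16, adjusted p = 0.000192). VPM and MGv differed by 0.31 ± 0.16 on the log2 scale, which did not pass (adjusted p = 0.221). Hs2st1, which sulfates the iduronic acid, was at 11.7 to 20.5 CPM in all libraries and had no call.

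**Figure D4:**
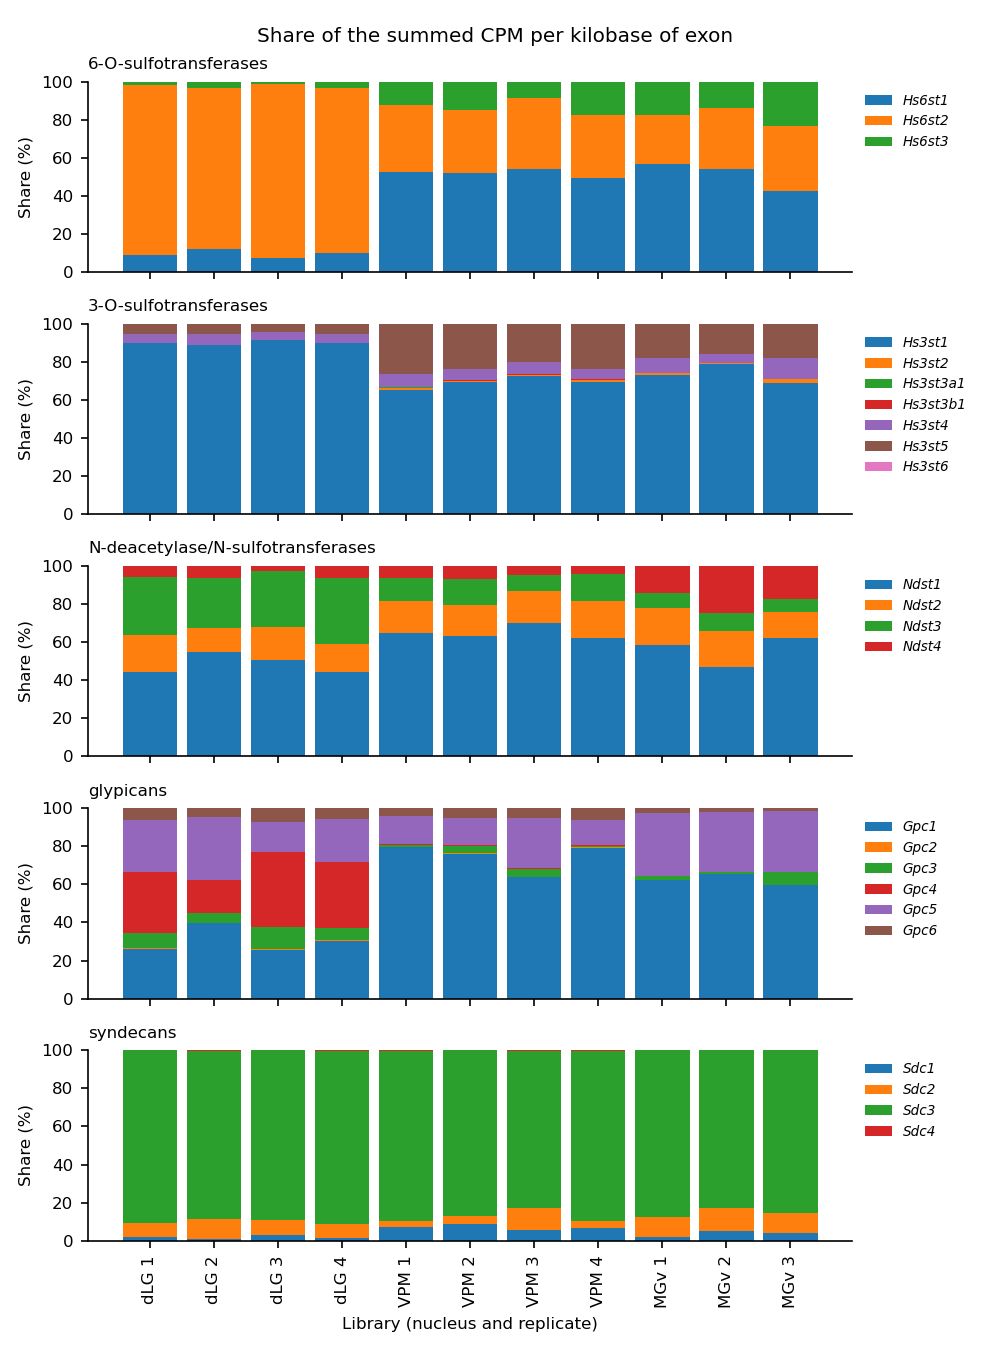
Share (%) of each gene in the summed CPM per kilobase of exon of its class, for each library (bars) and 5 classes (panels). In the 6-O-sulfotransferases Hs6st2 fills most of each dLG bar and Hs6st1 the larger share elsewhere, Gpc4 appears as a visible band in dLG alone, and Sdc3 fills most of the syndecan bars in all libraries.

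Among the linker and polymerase genes, Xylt2 and Extl2 were highest in VPM. Xylt2, which starts the chain, was at 42.2, 29.6, 30.4 and 36.4 CPM in VPM, 21.6, 18, 15.6 and 22.4 CPM in dLG and 17.8, 12.8 and 9.42 CPM in MGv. VPM lay above both without overlap, 1.79-fold above dLG (log2 0.84 ± 0.21, adjusted p = 0.024) and 2.59-fold above MGv (log2 1.37 ± 0.23, adjusted p = 0.00159). The step from dLG to MGv, 0.54 ± 0.23 on the log2 scale (adjusted p = 0.164), passed only without MGv replicate 1 (adjusted p = 0.0551) among the libraries left out singly.

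Extl2 formed the same order in smaller steps, with 72.6, 74.9, 64.3 and 59.8 CPM in VPM, 55, 43.1, 55.9 and 45.6 CPM in dLG and 38.3, 36.5 and 30.2 CPM in MGv. No groups overlapped, and the step from VPM to MGv was 1.94-fold (log2 0.96 ± 0.16, adjusted p = 0.00113). The dLG lay 1.36-fold below VPM (adjusted p = 0.0726), a call lost without dLG replicate 2, dLG replicate 4, VPM replicate 1 or VPM replicate 2 (adjusted p = 0.128 to 0.206). It lay 1.42-fold above MGv (adjusted p = 0.0455), a call lost without dLG replicate 1, dLG replicate 3 or MGv replicate 3 (adjusted p = 0.113 to 0.181).

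Xylt1, the second xylosyltransferase, was scarce, at 0.547, 0.601, 0.109 and 0.381 CPM in dLG, 2.08, 1.99, 0.743 and 1.76 CPM in VPM and 4.28, 2.1 and 0.971 CPM in MGv. All dLG libraries were below all others, 3.96-fold below VPM (log2 1.99 ± 0.59, adjusted p = 0.0565) and 5.91-fold below MGv (log2 2.56 ± 0.62, adjusted p = 0.0146). The first call was lost without dLG replicate 3, dLG replicate 4, VPM replicate 1, VPM replicate 2 or VPM replicate 4 (adjusted p = 0.1 to 0.141) and the second without MGv replicate 1 (adjusted p = 0.107).

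B3gat3 averaged 18.7 ± 5.04 CPM in dLG, 31.7 ± 4.87 CPM in VPM and 36.6 ± 5.05 CPM in MGv and was lower in dLG than in VPM (log2 0.76 ± 0.20, adjusted p = 0.0316) and MGv (log2 0.96 ± 0.21, adjusted p = 0.00775). Ext1, which forms the chain polymerase with Ext2, averaged 17.3 ± 1.44 CPM in dLG, 13.5 ± 1.81 CPM in VPM and 21.4 ± 2.95 CPM in MGv, and VPM was below MGv (log2 0.67 ± 0.18, adjusted p = 0.023), while dLG against VPM was called only without VPM replicate 3 (adjusted p = 0.0939). Its partner Ext2 averaged 88.1 ± 12.1 CPM in dLG, 85.7 ± 2.55 CPM in VPM and 98.2 ± 10.4 CPM in MGv and had no call. Extl3, which begins the heparan sulfate chain, averaged 12.5 ± 3.03 CPM in dLG, 15.3 ± 0.413 CPM in VPM and 9.52 ± 0.919 CPM in MGv and was higher in VPM than in MGv (adjusted p = 0.0502), a call lost without MGv replicate 2 or MGv replicate 3 (adjusted p = 0.131 to 0.136). Extl1, at 0.526 to 2.07 CPM, had no call.

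Of the enzymes that edit the chain outside the cell, Sulf2 had the largest log2 difference between VPM and MGv among the members called in that contrast. It was at 73, 51 and 90.1 CPM in MGv, 6.32, 9.66, 10.3 and 13.9 CPM in dLG and 12, 11, 4.89 and 9.98 CPM in VPM. The lowest MGv library was far above the highest of the others, and MGv was 7.08-fold above dLG (log2 2.82 ± 0.31, adjusted p = 4.61e-05) and 7.5-fold above VPM (log2 2.91 ± 0.31, adjusted p = 3.89e-05). dLG and VPM differed by 0.08 ± 0.29 on the log2 scale (adjusted p = 0.921).

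Sulf1 had another order, at 2.25, 4.68, 0.925 and 1.24 CPM in dLG, 9.49, 12.6, 3.04 and 10.7 CPM in VPM and 9.0, 7.54 and 9.61 CPM in MGv. The VPM group overlapped dLG through replicate 3, a library low in Hspa8, and dLG replicate 2, of the same set, was the highest of the dLG libraries. dLG was 3.92-fold below VPM (log2 1.97 ± 0.48, adjusted p = 0.0238) and 3.79-fold below MGv (log2 1.92 ± 0.51, adjusted p = 0.0247), and both calls remained without the 3 libraries. Both were lost with only the libraries that held Y-linked reads (adjusted p = 0.344 against VPM and 0.26 against MGv). Set beside the enzymes that add 6-O-sulfate, Hs6st2 was highest in dLG, where Sulf1 was lowest, and lowest in MGv, where Sulf2 was highest. These orders are partial. Sulf2 was not called between dLG and VPM, nor Sulf1 between VPM and MGv (adjusted p = 0.967). Hs6st2 was chosen for its dLG level, and its call between VPM and MGv was lost without MGv replicate 1 or MGv replicate 2. Hs6st1 and Hs6st3 had no call.

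MGv libraries also held more RNA of single genes from the lists for other cell types, chosen after their values were seen. Which cells this RNA came from was not tested. Slc1a3 of radial glia was at 81.6, 90.2 and 45.4 CPM in MGv against 1.09 to 17.9 CPM elsewhere, but the other 6 genes of its list summed to 30.7 to 101 CPM in MGv against 42.7 to 140.3 CPM elsewhere. Mbp of oligodendrocytes was at 71.3, 62.3 and 65.3 CPM against 5.24 to 30.7 CPM, and the other 6 genes of its list summed to 12.4 to 21.1 CPM against 7.22 to 13.2 CPM. Gng8 of the habenula was at 18.2, 11.7 and 34.3 CPM in MGv against 0.730 to 9.73 CPM, while the other 5 habenula genes summed to 14.5 to 25.1 CPM in MGv, 21.7 to 41.1 CPM in dLG and 13.4 to 24.9 CPM in VPM. Without the named gene, the sums in MGv overlapped those elsewhere for all 3 lists. The part of these cells in the MGv levels of Sulf2 and Ndst4 was not tested.

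Glypicans are held to the membrane by a lipid anchor, and the 5 tested members each differed in at least 1 comparison, where 28.3% of all genes did. That count includes Gpc4, chosen for its dLG level, and Gpc3 and Gpc5, whose calls were lost when any of several single libraries was left out. Gpc4 (X:52053021-52165252, minus strand) was at 14.7, 6.7, 13.6 and 16.2 CPM in dLG, 0.185, 0.0865, 0.186 and 0.285 CPM in VPM and 0, 0 and 0.0971 CPM in MGv. It was detected in dLG libraries with 156 to 340 counts each, and elsewhere with 0 to 6. The 4 dLG libraries held 987 counts in all, the 4 VPM libraries 15 and the 3 MGv libraries 1, which puts the pooled ratio at 68.2 against VPM, a value for which the gene was chosen and which is given without a test. The lowest dLG library was again replicate 2. VPM and MGv were both close to the floor and did not differ past the threshold (adjusted p = 0.138), but passed without dLG replicate 2 or MGv replicate 3 (adjusted p = 0.0946 to 0.0955).

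Gpc3, the next glypican gene on the X chromosome, was at 3.77, 1.97, 4.08 and 3.05 CPM in dLG, 0.509, 1.43, 1.24 and 0.238 CPM in VPM and 0.90, 0.263 and 1.94 CPM in MGv. No library of another nucleus reached the lowest dLG library, but MGv replicate 3 came near it. dLG was 3.76-fold above VPM (log2 1.91 ± 0.59, adjusted p = 0.0675), a call lost without dLG replicate 1, dLG replicate 3, dLG replicate 4, VPM replicate 1 or VPM replicate 4 (adjusted p = 0.125 to 0.183). Against MGv the log2 difference was 1.64 ± 0.66 and did not pass (adjusted p = 0.139) unless MGv replicate 3 was left out (adjusted p = 0.0731).

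The start of Gpc4 lies 483 kb from that of Hs6st2 and the start of Gpc3 932 kb from it, in a stretch that was searched with 500 kb added at each end. It held 46 annotated genes, of which 24 were at 0 in every library and 8 could be tested. Of the other 5 tested, Ccdc160 was higher in dLG than in VPM (log2 0.60 ± 0.18, adjusted p = 0.0595) and than in MGv (log2 0.83 ± 0.20, adjusted p = 0.0148). Rap2c, Phf6, Hprt and Rps2-ps13 had no call for dLG. Hprt had a log2 difference of -0.58 ± 0.26 against VPM (adjusted p = 0.216) and 0.30 ± 0.28 against MGv (adjusted p = 0.573), and the values of the other 3 lay between -0.047 and 0.38. The genes not tested stayed at or below 0.526 CPM in every library. Within dLG, the libraries without Y-linked reads (replicates 1 and 3) had 614 and 646 CPM of Hs6st2 and those with them 472 and 616 CPM, and for Gpc4 the values were 14.7 and 13.6 against 6.70 and 16.2 CPM.

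**Figure D5:**
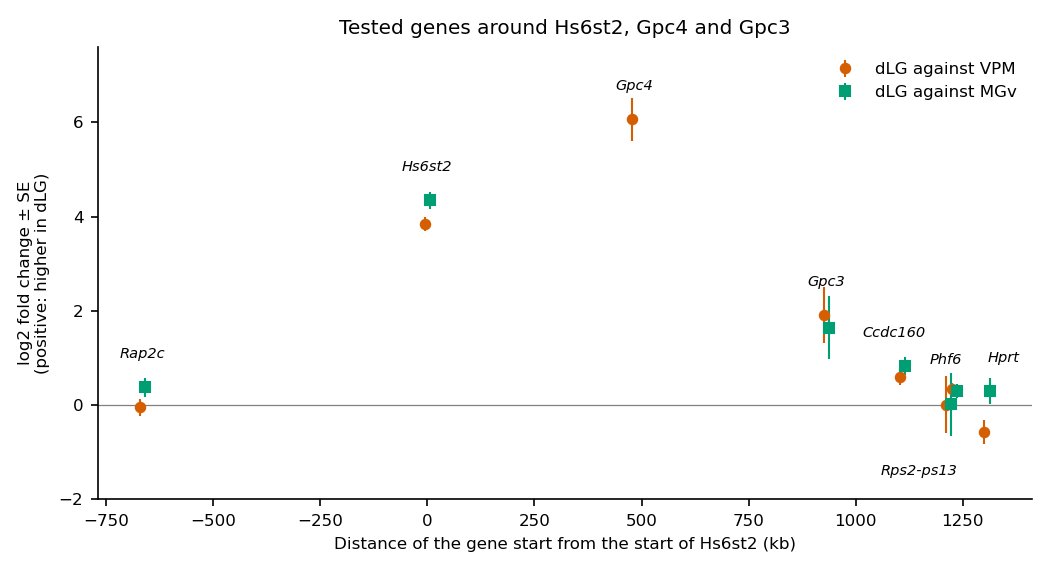
Log2 fold change ± SE of dLG against VPM (circles) and against MGv (squares) for the 8 tested genes around Hs6st2, by distance of the gene start from that of Hs6st2 in kb. Hs6st2 and Gpc4 stand far above the line at 0. Gpc3 lies above it by 1.91 ± 0.59 against VPM and 1.64 ± 0.66 against MGv, the latter not called. Ccdc160 lies above it by 0.60 and 0.83. Hprt lies at -0.58 against VPM and 0.30 against MGv, and Rap2c, Phf6 and Rps2-ps13 lie between -0.047 and 0.38. Gpc4 against MGv (1 count) is not drawn.

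Gpc1, the most abundant glypican per kilobase in VPM and MGv, was at 23.3, 29.7, 17.2 and 27.4 CPM in dLG, 61.7, 49.9, 37.5 and 62.2 CPM in VPM and 46, 34.8 and 33.6 CPM in MGv. dLG was the lowest without overlap, 2.16-fold below VPM (log2 1.11 ± 0.21, adjusted p = 0.00414) and 1.56-fold below MGv (log2 0.64 ± 0.22, adjusted p = 0.0768). The second call was lost without dLG replicate 1, dLG replicate 3, VPM replicate 2, MGv replicate 1, MGv replicate 2 or MGv replicate 3 (adjusted p = 0.1 to 0.273), and VPM against MGv, not called otherwise (log2 0.47 ± 0.22, adjusted p = 0.19), passed without VPM replicate 3 (adjusted p = 0.0686). Of its exonic length 18.9% has Ankmy1 on the other strand.

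Gpc6 was at 6.87, 4.55, 6.15 and 6.34 CPM in dLG, 4.21, 4.41, 3.72 and 5.99 CPM in VPM and 2.63, 1.23 and 1.17 CPM in MGv. MGv was below both without overlap, 3.52-fold below dLG (log2 1.82 ± 0.35, adjusted p = 0.00342) and 2.7-fold below VPM (log2 1.43 ± 0.35, adjusted p = 0.0148). dLG and VPM overlapped and did not differ past the threshold (adjusted p = 0.529).

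Gpc5 averaged 17.4 ± 5.73 CPM in dLG, 9.98 ± 2.34 CPM in VPM and 16.9 ± 3.41 CPM in MGv and was lower in VPM than in dLG (adjusted p = 0.0875) and MGv (adjusted p = 0.0942). Both calls were close to the threshold. The first was lost without dLG replicate 1, dLG replicate 2, dLG replicate 4, VPM replicate 1, VPM replicate 2, VPM replicate 4, MGv replicate 2 or MGv replicate 3 (adjusted p = 0.103 to 0.234) and the second without dLG replicate 1, dLG replicate 2, dLG replicate 4, VPM replicate 1, VPM replicate 2, VPM replicate 4, MGv replicate 1, MGv replicate 2 or MGv replicate 3 (adjusted p = 0.105 to 0.292). Set side by side per kilobase, Gpc4 made up 30.8 ± 9.45% of the glypican level in dLG, 0.511 ± 0.197% in VPM and 0.112 ± 0.193% in MGv, and Gpc1 30.3 ± 6.53%, 74.6 ± 7.3% and 62.4 ± 2.99%. The dLG shares include the level for which Gpc4 was chosen. The class as a whole summed to 15.7 ± 2.21 CPM per kb in dLG, 13.6 ± 1.88 in VPM and 11.9 ± 2.18 in MGv, intervals of mean ± SD that overlap.

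Syndecans cross the membrane, and Sdc3, the form typical of neurons, dominated the class with 89.7 ± 1.37%, 87 ± 3.41% and 85.1 ± 2.22% of its summed level per kilobase in dLG, VPM and MGv. It was at 414 ± 86.1 CPM in dLG, 461 ± 76 CPM in VPM and 508 ± 116 CPM in MGv and had no call, and 7.73% of its exonic length has a gene on the other strand.

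Sdc1 was at 5.78, 4.25, 7.51 and 5.0 CPM in dLG, 27.6, 29.1, 15.5 and 23.8 CPM in VPM and 7.95, 15.3 and 16.6 CPM in MGv. dLG lay below both other groups, 4.27-fold below VPM (log2 2.09 ± 0.28, adjusted p = 0.000353) and 2.36-fold below MGv (log2 1.24 ± 0.29, adjusted p = 0.0131). VPM and MGv overlapped, through VPM replicate 3, which lay below MGv replicate 3. VPM was 1.81-fold above MGv (adjusted p = 0.0733), a call lost without VPM replicate 1, VPM replicate 2, VPM replicate 4, MGv replicate 1 or MGv replicate 2 (adjusted p = 0.101 to 0.237), so that its place among the genes highest in VPM depends on single libraries.

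Sdc2 was at 17.6, 36.1, 16.2 and 20.7 CPM in dLG, 11.1, 12.8, 30 and 11.8 CPM in VPM and 44.8, 32.4 and 37.7 CPM in MGv. In each nucleus the highest library was the one low in Hspa8. Over all libraries VPM was 2.34-fold below MGv (log2 1.23 ± 0.35, adjusted p = 0.0338), a call lost without MGv replicate 1 (adjusted p = 0.111). dLG against VPM passed without VPM replicate 3 (adjusted p = 0.0375) and dLG against MGv without dLG replicate 2 or VPM replicate 3 (adjusted p = 0.0545 to 0.0583). Without the 3 libraries dLG was above VPM (log2 0.61, adjusted p = 0.0376) and below MGv (log2 0.96, adjusted p = 0.00514).

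Of the secreted proteoglycans, agrin (Agrn), which organizes synapses at nerve and muscle, averaged 79.7 ± 10.7 CPM in dLG, 128 ± 29.2 CPM in VPM and 109 ± 17.2 CPM in MGv. It was lower in dLG than in VPM (1.6-fold, log2 0.68 ± 0.17, adjusted p = 0.027), and the difference from MGv (0.45 ± 0.18 on the log2 scale, adjusted p = 0.14) passed only without VPM replicate 3 or VPM replicate 4 (adjusted p = 0.0706 to 0.0969) among the libraries left out singly. Col18a1, a basement membrane collagen, was at 1.28, 1.33, 1.74 and 1.86 CPM in dLG, 1.85, 1.73, 2.54 and 2.71 CPM in VPM and 0.375, 0.877 and 1.17 CPM in MGv. VPM was 2.76-fold above MGv (log2 1.46 ± 0.46, adjusted p = 0.051), a call lost without VPM replicate 4 or MGv replicate 1 (adjusted p = 0.106 to 0.163) and without the 3 libraries low in Hspa8 (adjusted p = 0.199).

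Among 68 other genes around this pathway 59 passed the filter, and 9 differed between dLG and VPM (6 toward dLG, 3 toward VPM, 15.3% of the tested genes against 10.7% of all genes). Counts were 15 between dLG and MGv (7 toward dLG, 8 toward MGv, 25.4% against 16.1%) and 10 between VPM and MGv (5 in each direction, 16.9% against 19.0%). In at least 1 comparison 19 of the 59 differed, 32.2% against 28.3% of all genes. These shares are description only. Of 15 genes for precursors and the linker, Pxylp1, the phosphatase that clears the linker xylose for chain growth, had the largest steps. It was at 30.3, 22 and 20.4 CPM in MGv, 8.7, 15.1, 10.9 and 10.6 CPM in dLG and 4.49, 4.06, 3.22 and 4.61 CPM in VPM. None of these groups overlapped (dLG above VPM by log2 1.46 ± 0.22, adjusted p = 0.00103, and below MGv by 1.1 ± 0.23, adjusted p = 0.00578, with VPM below MGv by 2.56 ± 0.24, adjusted p = 1.41e-05). Of 10 lysosomal genes that degrade the chain, Sgsh was higher in dLG than in VPM (log2 1.09 ± 0.35, adjusted p = 0.0764), and Ids, Naglu and Gusb were higher in dLG than in MGv by less than 1 on the log2 scale.

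The related chondroitin sulfate chain starts from the same linker, and of its 16 enzymes 13 were tested and 5 differed (38.5%, against 28.3% of all genes). Ust, which sulfates uronic acid of that chain, was at 7.58, 8.94 and 7.28 CPM in MGv, 3.89, 4.94, 2.99 and 2.81 CPM in dLG and 1.99, 1.69, 1.8 and 2.09 CPM in VPM. It repeated the order of Pxylp1 without overlap (VPM below MGv by log2 2.06 ± 0.28, adjusted p = 0.000249). Csgalnact1 was higher in VPM (2.13, 2.68, 3.59 and 3.47 CPM) than in MGv (0.90, 0.526 and 0 CPM, log2 2.57 ± 0.67, adjusted p = 0.0221) and higher in dLG than in MGv (log2 1.92 ± 0.67, adjusted p = 0.0832). Chst11 was higher in VPM than in MGv (log2 1.21 ± 0.28, adjusted p = 0.0111), and Chst7 (log2 2.3 ± 0.70, adjusted p = 0.0486) and Chst15 (log2 1.35 ± 0.35, adjusted p = 0.0206) were higher in MGv than in dLG.

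Of 27 receptors and ligands that bind heparan sulfate or work with it, 23 were tested and 7 differed (30.4%), a share near the 28.3% of all genes. Ptn, the growth factor pleiotrophin, was at 922, 1254, 984 and 871 CPM in dLG, 412, 466, 761 and 447 CPM in VPM and 477, 419.7 and 355 CPM in MGv. dLG was above VPM (log2 0.95 ± 0.19, adjusted p = 0.00755) and MGv (log2 1.27 ± 0.21, adjusted p = 0.00136) without overlap, and VPM replicate 3 was the highest outside dLG. Its relative Mdk was also higher in dLG (log2 1.05 ± 0.31 against VPM, adjusted p = 0.0564, and 1.85 ± 0.36 against MGv, adjusted p = 0.00394). Their receptor Ptprz1 was higher in MGv, at 14.6, 15.7 and 38.5 CPM, than in dLG (log2 1.62 ± 0.34, adjusted p = 0.00633) and VPM (log2 1.63 ± 0.34, adjusted p = 0.00683).

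The Lrrtm genes encode synaptic adhesion proteins, and each of the 3 that differed by more than 1 on the log2 scale had its own order. Lrrtm1 was at 244, 184, 177 and 225 CPM in dLG, 124, 130.3, 148 and 141 CPM in VPM and 57, 41.6 and 73.6 CPM in MGv, falling from dLG to VPM (log2 0.61 ± 0.17, adjusted p = 0.0387) and from VPM to MGv (log2 1.24 ± 0.19, adjusted p = 0.000624). Lrrtm3 was higher in MGv (76.7, 76.4 and 72.7 CPM) than in dLG (log2 1.32 ± 0.17, adjusted p = 0.000146) and VPM (log2 1.17 ± 0.17, adjusted p = 0.000386). Lrrtm4, which binds glypicans through their heparan sulfate, was at 6.75, 7.73, 9.25 and 4.81 CPM in dLG, 26.2, 25.1, 11.9 and 24.6 CPM in VPM and 14.9, 20.9 and 16.2 CPM in MGv, with dLG below VPM (log2 1.62 ± 0.27, adjusted p = 0.00193) and MGv (log2 1.28 ± 0.28, adjusted p = 0.00861).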

How the data were processed

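Sorted neurons of 3 thalamic nuclei were profiled by RNA-seq of amplified cDNA (SMARTer, single-end reads of 50 bases). The deposited values are read counts per gene, which the authors made with, per the submitters' processing notes, Trim Galore 0.6.1, STAR 2.7.0d and featureCounts (Subread 1.6.4) on mm10. Strand use was not given in the sources used here. Amplified reads are not independent molecules, so intervals and floors cover counting error only. Symbols and exons came from GENCODE M21, and promoter windows from RefSeq (GRCm38.p6).

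Counts of 11 libraries entered edgeR 4.0.16 (R 4.3.3) with filterByExpr, TMM, glmQLFit and glmQLFTest (two-sided, adjusted p under 0.1, as in the study, which used DESeq2), with 1 mean per nucleus and no covariate. SE is the log2 fold change over the square root of F. The fits were tested on simulated counts, where recovery was incomplete for genes of low count, and the share of unchanged genes among those called in any contrast was somewhat above the threshold for edgeR and voom and well above it for DESeq2. Named genes are those called with an absolute log2 fold change over 1 or enriched in 1 nucleus; per-library values are given for members, and Hspa8, Slc1a3, Mbp, Gng8 and genes next to Hs6st2 were added after their values were seen. The members and lists were chosen with earlier results of these data known. Libraries of a nucleus differed by far more than counting noise (chi-square per degree of freedom 12.8 to 114.7), and no library was counted as a copy. Because the reads were amplified, this comparison alone cannot show that the pools were separate. The labels do not say that libraries came from separate litters, so p-values measure the spread between pooled libraries. Alternatives were DESeq2 1.42.0, limma 3.58.1 (voom), other scaling, filters and thresholds, thinned counts, the replicate number as a block, each nucleus pair alone and each library left out, and, chosen after seeing the data, the libraries low in Hspa8 as a covariate or left out, and libraries with Y-linked reads only.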

Additional observations from a re-analysis of the deposited data

Results flagged for a closer look

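In 3 of 68 sets of 4 libraries, 1 library stood apart from the rest by Dixon's test, where chance flags about 1 set in 20. Glce in VPM replicate 4 was at 36.5 CPM against 39.0 to 39.4 CPM in the other VPM libraries. Ext1 in dLG replicate 3 was at 15.1 CPM against 17.8 to 18.2 CPM. Sdc2 in VPM replicate 3, a library low in Hspa8, was at 30.0 CPM against 11.1 to 12.8 CPM. The causes were not tested.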

How the results depend on the processing

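Of 41 calls of members, leaving out the 4 dLG contrasts of Hs6st2 and Gpc4 that chose these genes, 15 passed in all 24 alternatives, 1 more (Hs3st2 for dLG against MGv) passed in the 23 that gave it a value, and 0 reversed direction. With only the libraries that held Y-linked reads (2 of dLG, 3 of VPM and 3 of MGv) 6 members were called for dLG against VPM, 9 for dLG against MGv and 7 for VPM against MGv, and 4 were enriched in 1 nucleus (Ndst3 and Sulf2, beside Hs6st2 and Gpc4, which were chosen for their dLG level), where fewer libraries were fitted. That fit lost 23 calls. For dLG against VPM they were Glce, Hs3st2, Extl2, Xylt1, Xylt2, B3gat3, Sulf1, Gpc1, Gpc3, Gpc5 and Agrn. For dLG against MGv they were Hs3st1, Ndst4, Extl2, Xylt1, B3gat3, Sulf1 and Gpc1, and for VPM against MGv Hs6st2, Ext1, Gpc5, Sdc1 and Col18a1. Leaving out 1 library gave 13 to 20, 14 to 19 and 8 to 14 members and 7 to 12 enriched. The replicate block gave 15, 17 and 10 members and 7 enriched, losing Extl2 and Gpc5 for dLG against VPM and Gpc5 and Sdc1 for VPM against MGv. Replicate numbers gave no clear pairing. The correlation of deviations over 10 same-numbered pairs was between -0.20 and 0.48, over 0.1 in 2, and 4 of 11 libraries correlated best with their own number. The highest value of all pairs across nuclei, 0.48, was that of dLG replicate 4 and VPM replicate 4. Whether same-numbered libraries shared brains or a day is not in the labels and cannot be told from these values. Over all genes, dLG against VPM gave 1704 calls, 383 with only Y-linked libraries, 2618 without the 3 libraries low in Hspa8, and 1093 to 2223 with 1 library left out. dLG against MGv gave 2562 calls and 988 with only Y-linked libraries, and VPM against MGv 3016 and 1860. Genes near 1 CPM rest on few reads, most of all in MGv, the shallowest group.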
